A study of Jatropha curcas with 15 samples.

Results

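Inflorescence buds of *Jatropha curcas* collected 48 h after treatment with the synthetic cytokinin 6-benzyladenine (BA) were compared with buds collected 12 h after the same treatment. The comparison rested on the 3 arrays labelled 48 h and the 3 labelled 12 h, which were 6 of the 15 arrays of a time course (0, 3, 12, 24 and 48 h, 3 biological replicates each). All buds came from field-grown plants that were 1 year old and were treated with 1 mM BA, which the sample labels call 6-benzylaminopurine. Both time points carried the treatment, and untreated buds of the same hours were not analysed here, so a difference between 48 h and 12 h is a difference in time under BA and not an effect of BA. By the hours elapsed, 48 h falls at the same time of day as 0 h and 24 h, and 12 h falls at the opposite time of day, so that the day after treatment and the time of day cannot be told apart. The 48-h arrays filled slide 4, while 12-h replicates 1 and 2 lay on slide 2 and replicate 3 on slide 3, so slide and time point cannot be told apart either. All 6 arrays were scanned on the same day. Whether buds of several plants were combined in a replicate is not given in the sources used here.

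Cytokinins are plant hormones that promote cell division and keep meristems, the tissues that form new organs, active. In an inflorescence bud the meristem gives rise to floral primordia, whose organs are specified by combinations of MADS-box transcription factors. In *Arabidopsis*, A-class genes act in sepals and petals, B-class genes in petals and stamens, C-class genes in stamens and carpels, and E-class genes (the *SEPALLATA* genes) in all floral organs. Many plant genes also follow the day, among them the clock-associated gene *GIGANTEA* (*GI*), the genes of the light-harvesting proteins and several water channel genes.

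Levels are given as log2 intensity relative to the 75th percentile of the same array, so that a difference of 1 is a 2-fold difference, and levels of different probes cannot be set against each other. Of the 41651 probes, 34449 (82.7%) were tested, the rest being dim (not well above background) on 1 or more arrays at each of the 5 time points or, for a few, marked by the scanner software. The share of probes well above background was 81.3% to 84.0% on the 48-h arrays and 82.0% to 83.5% on the 12-h arrays, and no spot was saturated. Correlations between replicate arrays were 0.994 to 0.995 at 48 h and 0.990 to 0.992 at 12 h. The 12-h replicate 3 had the lowest weight of the 6 arrays (0.44, against 0.68 to 0.83 for the other 12-h arrays and 0.82 to 1.70 for the 48-h arrays) when each array was given a spread of its own. For the probes named by rule, values without that array are given below where it decided the call or moved the fold by more than 1.5 times.

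Differences of at least 2-fold were called if limma's adjusted p did not exceed 0.05. By this rule 2816 of 34449 probes (8.17%) differed between 48 h and 12 h, 1818 (5.28%) being higher and 998 (2.90%) lower at 48 h. Among them, 631 were at least 4-fold higher and 190 at least 4-fold lower at 48 h, and 88 were at least 16-fold higher and 13 at least 16-fold lower. The median difference over all tested probes was -0.01 after this scaling, which itself aligns the arrays, and without scaling 2005 probes were called higher and 849 lower. At an adjusted p of 0.05 without the fold threshold, 5458 probes had a higher and 5510 a lower level at 48 h, together 10968 (31.8%) of the tested probes. With normexp background correction, which adds an offset to every signal, 1789 probes were called, 1204 higher and 585 lower, and all other alternatives gave between 2303 and 3268 calls. The 48-h and 12-h arrays did not overlap for 15334 tested probes (44.5%) and for 2763 of the 2816 called probes. Absence of overlap, given below for named probes, was therefore usual among called probes. Several probes can read the same transcript, so counts of probes are not counts of genes.

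**Figure D1:**
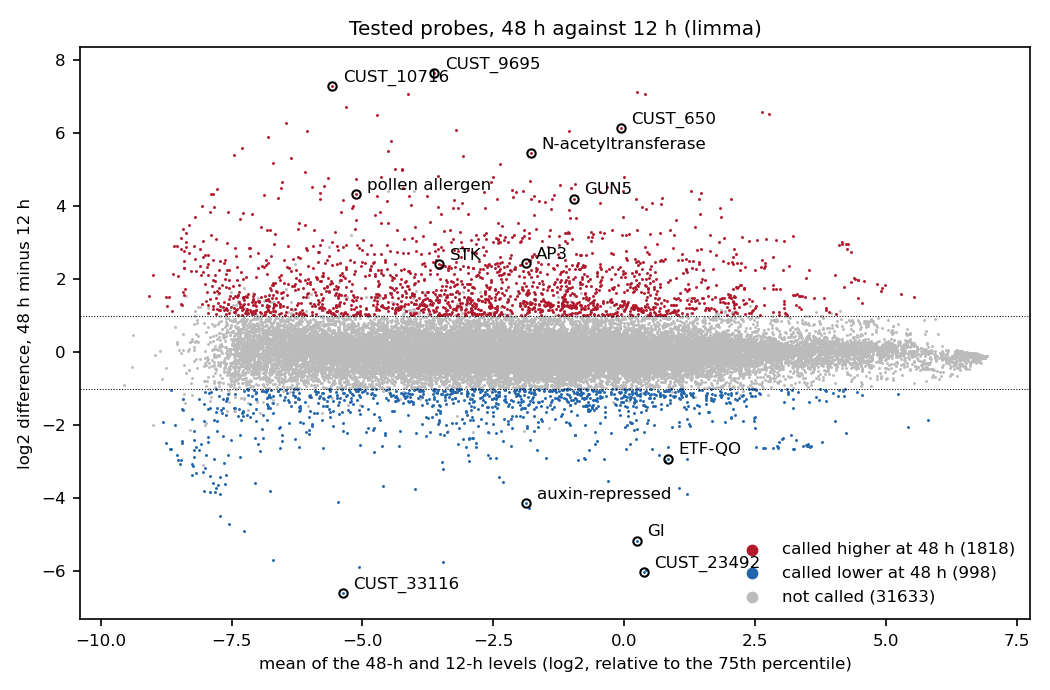
Each point is 1 of the tested probes, plotted as the log2 difference 48 h minus 12 h (vertical axis) against the mean of the levels at 48 h and 12 h (horizontal axis, log2 relative to the 75th percentile of the array). Red points are the 1818 probes called higher and blue points the 998 called lower at 48 h, dotted lines mark a 2-fold difference, and circles mark named probes (ETF-QO is electron transfer flavoprotein-ubiquinone oxidoreductase), of which CUST_9695 lay highest at 7.65 and CUST_33116 lowest at -6.60.

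To place the differences in the time course, the mean level of each called probe at 0 h and at 24 h was compared with its means at 48 h and 12 h, as a description without a test. Of the 1818 probes higher at 48 h, 1325 (72.9%) lay nearer the 48-h than the 12-h level at both 0 h and 24 h. For the 998 probes lower at 48 h this number was 590 (59.1%), and over all tested probes it was 14289 (41.5%). The 3-h level, at neither time of day, also lay nearer 48 h than 12 h for 1508 (82.9%) of the higher and 750 (75.2%) of the lower probes, against 60.0% of all tested probes. The levels at 0, 3 and 24 h all lay nearer 48 h than 12 h for 1274 (70.1%) of the higher and 523 (52.4%) of the lower probes, against 34.4% of all tested probes. Hence for most of the higher probes, and for a narrow majority of the lower ones, 12 h stood apart from the other time points, those of the opposite time of day and 3 h alike. The reverse pattern, with both 0 h and 24 h nearer the 12-h level, held for 177 probes (9.74%) that were higher and 113 (11.3%) that were lower at 48 h, against 22.6% of all tested probes.

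*GI* had the largest difference among the flowering genes. Its level was -2.29, -2.30 and -2.44 at 48 h, against 2.96, 2.58 and 2.92 at 12 h, so that all 48-h arrays lay far below all 12-h arrays. The difference was -5.16 ± 0.13 (SE), which made *GI* 35.8-fold lower at 48 h (adjusted p = 2.1e-10). Over the 5 time points in order (0, 3, 12, 24, then 48 h) *GI* averaged -3.61, 0.14, 2.82, -3.03 and -2.34, so that 12 h was the highest and 48 h was nearer 0 h and 24 h than 12 h, though above both. *CONSTITUTIVE PHOTOMORPHOGENIC 1* (*COP1*), a ubiquitin ligase that represses light responses in darkness, went the other way. *COP1* measured 0.33, 0.55 and 0.45 at 48 h, against -0.93, -1.08 and -0.52 at 12 h, with no overlap. It was 2.44-fold higher at 48 h (1.28 ± 0.12, adjusted p = 6.9e-06). Of the photoreceptor genes, the blue-light receptor *CRY1* differed by 0.66 ± 0.10 (adjusted p = 0.00026) and the far-red receptor *PHYA* by 0.20 ± 0.07 (adjusted p = 0.047), both under the fold threshold.

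The list of flowering genes, which the study had matched to *Arabidopsis* genes by homology, held 32 probes, of which 29 were tested. Of the 29, 7 were higher (*AG*, *AP3*, *COP1*, *SEP1*, *SEP2*, *SEP3* and *STK*) and 1 (*GI*) lower at 48 h, and 21 were not called, beside 8.17% of all probes called in either direction. The median difference of the list was 0.20, and 17 of the 29 differences were above 0, beside 16828 of the 34449 over all tested probes. Dim probes of *CUC2*, *PI* and a tomato *MADS6* homologue did not pass the filter on dim probes.

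Floral organ identity genes made up 6 of the 7 higher probes. The probes read the following stretches of the *AP3* and *SEP3* transcripts, shown because these genes had the largest differences of the B and E classes (60 bases each, as designed by the study, written 5′ to 3′ in lower case).
AP3 (CUST_10541): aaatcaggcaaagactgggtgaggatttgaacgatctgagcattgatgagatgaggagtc
SEP3 (CUST_10402): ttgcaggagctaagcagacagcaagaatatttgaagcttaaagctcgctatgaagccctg

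*AP3*, the B-class gene of petals and stamens, measured -0.94, -0.03 and -0.999 at 48 h, against -2.11, -2.57 and -4.61 at 12 h. Its 3 arrays at 48 h were all above those at 12 h, where replicate 3 was the lowest. *AP3* was 5.43-fold higher at 48 h (2.44 ± 0.55, adjusted p = 0.0045), and without 12-h replicate 3 the difference was 1.69 (adjusted p = 0.0083). *STK*, a D-class gene of ovule identity, measured -2.56, -1.83 and -2.57 at 48 h, against -4.09, -4.05 and -6.06 at 12 h. Again the groups did not overlap, and the difference was 2.41 ± 0.47 (adjusted p = 0.0019), or 1.75 without 12-h replicate 3. The C-class gene *AG* measured -5.12, -4.75 and -5.28 at 48 h, against -6.27, -5.88 and -6.40 at 12 h, a smaller but non-overlapping difference of 1.14 ± 0.19 (adjusted p = 0.00057) that lost its call with normexp background correction (0.75) and without 48-h replicate 2 (0.98).

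The 3 *SEPALLATA* genes on the list were all higher at 48 h. *SEP3* measured -0.72, -0.03 and -0.42 at 48 h, against -1.63, -1.46 and -3.45 at 12 h, a difference of 1.79 ± 0.40 (adjusted p = 0.0047). *SEP1* measured -1.14, -0.67 and -1.17 at 48 h, against -1.94, -1.86 and -3.005 at 12 h, a difference of 1.28 ± 0.27 (adjusted p = 0.0032). *SEP2* measured 1.22, 1.62 and 1.43 at 48 h, against 0.79, 0.51 and -0.26 at 12 h, a difference of 1.08 ± 0.20 (adjusted p = 0.0016). In none of them did the groups overlap, and 12-h replicate 3 was the lowest array for each. Without that array the differences were 1.16 for *SEP3*, 0.91 for *SEP1* and 0.77 for *SEP2*, so that *SEP1* and *SEP2* remained past the adjusted p (0.0059 and 0.0010) but no longer reached 2-fold. *SEP3* lost its call when only the 6 arrays of the comparison were fitted (adjusted p = 0.051), as did *SEP2* in the fit with array weights and without 48-h replicate 2. The 12-h replicate 3 was the lowest of its group for 6 of the 7 higher flowering probes and for 12051 of the 34449 tested probes, and its part in these results beyond the values given was not tested.

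The A-class genes were not called. *AP1*, which acts in floral meristem and perianth identity, measured 1.73, 1.66 and 1.54 at 48 h, against 1.40, 1.495 and 0.36 at 12 h (0.56 ± 0.24, adjusted p = 0.089). *AP2* measured -1.59, -1.19 and -1.38 at 48 h, against -1.79, -1.91 and -1.35 at 12 h (0.29 ± 0.14, adjusted p = 0.14), with overlapping groups. Of the genes of meristem and organ boundary, *STM*, which keeps the shoot meristem undifferentiated, measured 2.08, 1.73 and 1.76 at 48 h, against 1.61, 2.43 and 2.29 at 12 h (-0.25 ± 0.20, adjusted p = 0.35). *CUC1*, which separates organ primordia, measured -6.53, -4.60 and -4.97 at 48 h, against -5.72, -6.49 and -4.79 at 12 h (0.30 ± 0.68, adjusted p = 0.77), with a spread among replicates larger than the difference. Over the 21 probes not called the differences ranged from -0.70 ± 0.54 for *AGL20*, a promoter of flowering also known as *SOC1*, to 0.72 ± 0.21 for an auxin response factor, and 5 of them passed the adjusted p without reaching 2-fold. With the called probes, 13 of the 29 tested flowering probes passed the adjusted p, beside 31.8% of all tested probes. The flowering repressor *SVP* differed by -0.27 ± 0.14, and *TS2*, which acts in flower sex determination in maize, by -0.46 ± 0.31. In bulk buds, fewer cells of a type and less RNA per cell cannot be told apart.

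**Figure D2:**
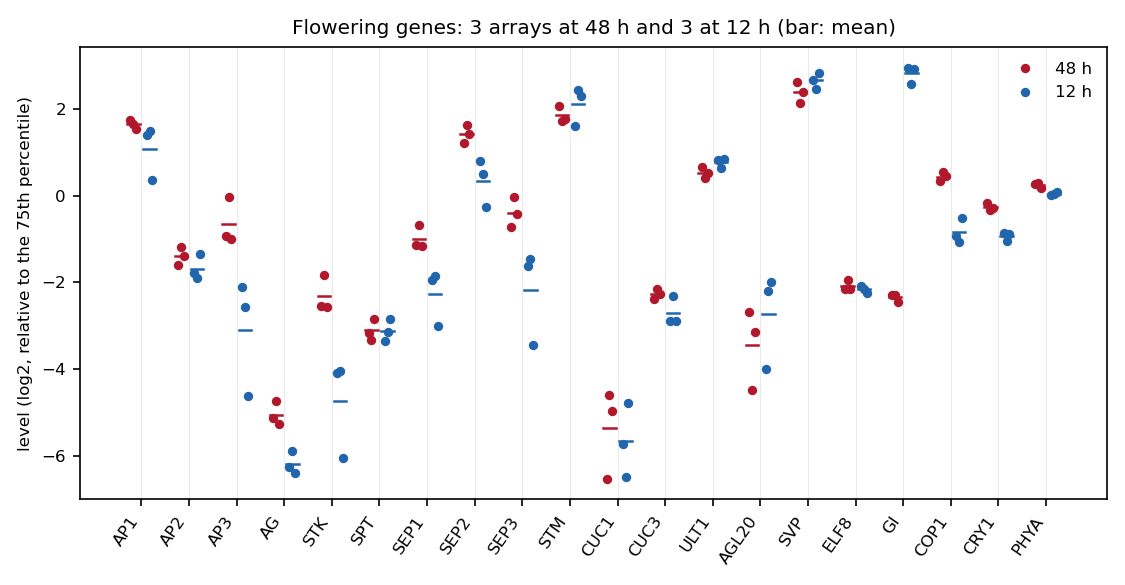
Levels (vertical axis, log2 relative to the 75th percentile of the array) of 20 of the 29 tested flowering genes in the 3 arrays at 48 h (red, left in each pair) and the 3 at 12 h (blue, right), with bars at the means. *GI* lay lower at 48 h, *AP3*, *STK*, the *SEP* genes, *AG* and *COP1* lay higher without overlap, and the 12-h points of *AP3*, *STK* and *SEP3* include 1 low array, replicate 3.

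Markers of the tissues a bud could hold were set beside these values. Of the 8 floral organ markers, 7 or 8 were well above background on each array (*PI* on 2 arrays at 48 h and 1 at 12 h), and their summed level relative to the 75th percentile was 7.44 to 9.14 at 48 h, against 2.40 to 5.27 at 12 h. The 12 green-tissue markers were well above background on all 6 arrays, with a summed level of 87.7 to 127 at 48 h, against 28.7 to 44.5 at 12 h. The 13 seed or embryo markers, mostly oleosins, summed to 0.356 to 0.492 at 48 h, against 0.196 to 0.787 at 12 h. The meristem marker *STM* was at 3.32 to 4.22 at 48 h, against 3.05 to 5.39 at 12 h. The floral markers are the organ identity probes described above and the green-tissue markers include the called chlorophyll A/B binding probes given below, so their sums restate those results and are no separate check. The ranges of the seed markers and of *STM* overlapped. Of the 2 anther and pollen markers, the anther-specific proline-rich protein was well above background on all 6 arrays and the pollen allergen on 3 arrays at 48 h and 1 at 12 h. Their summed level was 0.258 to 0.301 at 48 h, against 0.208 to 0.239 at 12 h, which did not overlap. The 2 markers went in opposite directions, with -0.52 for the anther-specific protein and 4.33 for the pollen allergen, so the sum does not describe both. The part of tissue make-up in the differences was not tested.

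Of the 115 hormone probes that the study had matched to *Arabidopsis* genes, 113 were tested, 13 being higher and 4 lower at 48 h, beside 8.17% of all probes called. Their median difference was -0.01, as it was over all probes. A probe listed under several hormones was counted once, in the first class given, so class counts can fall below the study's. The cytokinin class, the hormone type applied, had 24 tested probes and none called, with differences from -0.90 to 0.99 and a median of 0.01. At the adjusted p alone, 8 of the 24 passed, near the 31.8% of all tested probes. The probes at either end of that range, *ATHB2* (-0.90 ± 0.19, adjusted p = 0.0031) and *ACC1* (0.99 ± 0.22, adjusted p = 0.0046), had non-overlapping groups but stayed short of 2-fold. The receptor *AHK3*, singled out for its role and after its values were seen, measured 1.53, 1.60 and 1.49 at 48 h, against 1.30, 1.26 and 1.58 at 12 h (0.16 ± 0.10, adjusted p = 0.24), with overlapping groups.

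The abscisic acid (ABA) class had 5 probes higher and 0 lower of 23 (21.7% called, beside 8.17% of all probes). *GUN5*, which the study lists as an ABA receptor and which encodes the H subunit of magnesium chelatase in chlorophyll synthesis, measured 1.05, 1.53 and 0.83 at 48 h, against -2.89, -3.27 and -3.05 at 12 h. It was 18.5-fold higher at 48 h (4.21 ± 0.18, adjusted p = 1e-08), with no overlap and little spread within either group. The other 4 included enzymes on the path to ABA. *NCED3*, which cleaves the carotenoid precursor, measured -5.09, -5.20 and -4.95 at 48 h, against -7.29, -6.09 and -7.42 at 12 h (1.85 ± 0.31, adjusted p = 0.00071). *ABA1*, the zeaxanthin epoxidase, measured -2.08, -1.80 and -1.91 at 48 h, against -3.22, -3.54 and -3.43 at 12 h (1.47 ± 0.18, adjusted p = 6.7e-05). *CLA1*, which starts the plastid isoprenoid pathway, measured 0.45, 0.85 and 0.19 at 48 h, against -0.80, -0.90 and -0.76 at 12 h (1.31 ± 0.18, adjusted p = 0.00013). In all 3 the 48-h arrays lay above the 12-h arrays, and the call of *NCED3* was lost with normexp background correction. *IP5PII*, a phosphatase of the inositol phosphate signal, was 2.23-fold higher (1.16 ± 0.21, adjusted p = 0.0013) and fell to 0.84 without 12-h replicate 2, under the fold threshold. Its call was also lost with normexp background correction (0.86).

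In the auxin class 3 of 25 probes were higher and 1 was lower, beside 8.17% of all probes called. *SUR1* is a lyase of glucosinolate synthesis whose loss raises auxin in *Arabidopsis*, and the probe matched to it is described as a tyrosine aminotransferase in the study's tables. That probe measured -2.55, -2.48 and -2.54 at 48 h, against -5.77, -5.31 and -4.59 at 12 h (2.69 ± 0.27, adjusted p = 1e-05). *IAMT1*, which methylates indole-3-acetic acid, measured -4.73, -4.53 and -4.59 at 48 h, against -5.82, -5.22 and -7.54 at 12 h (1.58 ± 0.42, adjusted p = 0.013). The groups did not overlap in either, but the 12-h replicate 3 of *IAMT1* lay far below the others, and without it the difference was 0.90. The call of *IAMT1* was also lost with normexp background correction (0.995) and in the fit of 6 arrays (adjusted p = 0.084). *CHS*, the entry enzyme of flavonoid synthesis, which the study lists under auxin transport, differed by 1.28 ± 0.20 (adjusted p = 0.00037). The auxin-induced repressor *IAA19* measured -1.79, -1.09 and -1.53 at 48 h, against -0.21, -0.55 and -0.23 at 12 h, all lower at 48 h (-1.14 ± 0.18, adjusted p = 0.00048), and fell short of 2-fold (-0.98) without 48-h replicate 1.

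Among the gibberellin genes, 3 of 7 tested were higher and 1 was lower (57.1% called, beside 8.17% of all probes). The receptor gene *GID1b* measured -0.80, -0.72 and -0.40 at 48 h, against -2.14, -1.94 and -1.62 at 12 h (1.26 ± 0.22, adjusted p = 0.00077). Its relative *GID1c* measured -0.13, -0.01 and 0.33 at 48 h, against -1.40, -1.23 and -0.75 at 12 h (1.19 ± 0.23, adjusted p = 0.0018). Both were higher on every 48-h array than on any 12-h array. Over the 5 time points in order *GID1c* averaged -1.52, -1.30, -1.13, -0.72 and 0.06, so that 48 h was the highest time point and 12 h lay near 0 h and 3 h, unlike the pattern of *GI* or *AP3*. *GA20ox1*, which makes gibberellin precursors, was close to the threshold (1.18 ± 0.42, adjusted p = 0.047) and lost its call in 13 of the 20 alternatives, among them the fit without 12-h replicate 3 (1.000, adjusted p = 0.14). *GA2ox6*, which inactivates gibberellins, was lower (-1.11 ± 0.34, adjusted p = 0.026), lost its call in 7 of 20, and differed by -0.56 without 12-h replicate 3.

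In the other classes *JMT*, which methylates jasmonic acid, measured -2.59, -1.66 and -2.22 at 48 h, against -4.75, -4.76 and -5.82 at 12 h. It was 7.73-fold higher at 48 h with no overlap (2.95 ± 0.29, adjusted p = 1e-05). *FAD3*, a desaturase that makes the linolenic acid from which jasmonic acid derives, measured 0.81, 0.66 and 0.60 at 48 h, against 2.01, 2.01 and 1.60 at 12 h. It was 2.26-fold lower (-1.18 ± 0.13, adjusted p = 2e-05). Of 2 probes matched to the brassinosteroid glucosyltransferase *DOGT1*, CUST_14505 was 7.41-fold higher (2.89 ± 0.44, adjusted p = 0.00035), with 12-h values spread from -7.92 to -5.42, only 2 of them well above background, and a difference of 3.59 without 12-h replicate 1. The other, CUST_34329, was well above background on all 6 arrays and differed by -0.01 ± 0.24 (adjusted p = 0.99), so the probes disagree. *MBF1c*, a stress-related coactivator of the ethylene class, was lower at 48 h (-1.58 ± 0.54, adjusted p = 0.042), but its call was lost in 11 of the 20 alternatives, without 12-h replicate 3 among them (-1.38, adjusted p = 0.12). The desaturase *SSI2* of the jasmonic acid class was not called (1.55 ± 0.60, adjusted p = 0.067) but would be without that array (2.40, adjusted p = 0.0015). The 4 probes counted under salicylic acid had no call, though the study also links *MBF1c* to that hormone.

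**Figure D3:**
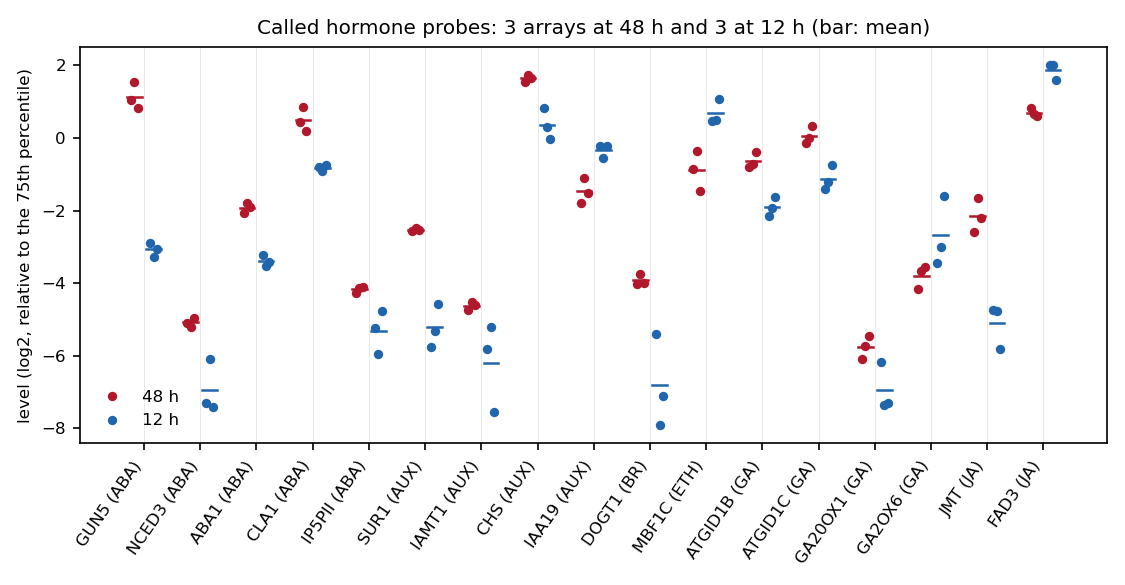
Levels (vertical axis, log2 relative to the 75th percentile of the array) of the 17 called hormone probes in the 3 arrays at 48 h (red, left in each pair) and the 3 at 12 h (blue, right), with bars at the means and the hormone class in brackets (ABA abscisic acid, AUX auxin, BR brassinosteroid, ETH ethylene, GA gibberellin, JA jasmonic acid). The 13 higher and 4 lower probes had no overlap between the groups, as was usual among called probes. The widest gap was that of *GUN5*.

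Probes outside these lists were named through the part of the study's list of changed probes that was used here, all of whose entries were tested. That list was chosen by the study on these samples, so counts in it are no independent evidence. Among its entries 115 were higher, 62 were lower and 789 were not called (18.3% called, beside 8.17% of all probes), and the median difference was -0.01.

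The 12 functional groups were drawn from the study's list of changed probes. Their called shares stand beside its 18.3% and the 8.17% of all probes. Photosynthesis and carbon fixation had 11 of 28 probes higher and 0 lower (39.3% called). This group had the highest median, 0.92, and 23 of the 28 differences were above 0. All 8 probes for chlorophyll A/B binding proteins, which hold the antenna pigments of the photosystems, had positive differences, and 6 of them were called. CUST_10867 measured 1.91, 2.48 and 1.80 at 48 h, against -0.06, -0.77 and -0.66 at 12 h (2.56 ± 0.27, adjusted p = 1.6e-05). CUST_12680 measured 2.25, 2.84 and 2.26 at 48 h, against 0.02, -0.22 and -0.11 at 12 h (2.55 ± 0.22, adjusted p = 3e-06). CUST_7578 measured 5.22, 5.69 and 5.33 at 48 h, against 3.77, 2.93 and 3.52 at 12 h (2.01 ± 0.21, adjusted p = 1.5e-05). Every 48-h array exceeded every 12-h array in each of these. The called members also held 2 probes for phosphoribulose kinase of the Calvin cycle (1.35 and 1.27), glutamyl-tRNA reductase of chlorophyll synthesis (1.53), ferredoxin-2 (1.09) and the photosystem II 22 kDa protein (1.19). A light-harvesting complex I protein of the qRT-PCR list (CUST_11579) was close to the threshold (1.06 ± 0.32, adjusted p = 0.022) and lost its call in 6 of 20 alternatives, without 12-h replicate 3 among them (1.03, adjusted p = 0.058). At 0 h and 24 h, 10 of the 11 higher probes lay nearer the 48-h level.

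Some of these probes overlap in sequence and do not count as separate evidence. The pair below is shown for that reason, with the longest run of bases shared by both probes (28) in capitals.
CUST_969: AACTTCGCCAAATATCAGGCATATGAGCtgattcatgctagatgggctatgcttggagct
CUST_9100: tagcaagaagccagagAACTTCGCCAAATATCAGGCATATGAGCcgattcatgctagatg
Their differences were 1.498 and 1.51.

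Water channels (aquaporins) had the next highest median (0.86). At 48 h, 6 of the 16 probes were higher and 0 lower (37.5% called), and 15 of the 16 differences were above 0. The calls were all in plasma membrane intrinsic proteins (PIPs), which move water across the cell membrane, with 6 of 9 called, against 0 of 7 for the tonoplast intrinsic proteins of the vacuole, whose median was 0.84. The difference between these subfamilies was not tested. The 3 PIP probes with the largest differences are printed to show that they read different sequences, PIP2.2 sharing no run of more than 6 bases with either of the others.
PIP subfamily (CUST_19976): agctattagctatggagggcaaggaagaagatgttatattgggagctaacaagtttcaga
PIP2.2 (CUST_20176): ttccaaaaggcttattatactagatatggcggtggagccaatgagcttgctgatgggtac
PIP1.3 (CUST_20019): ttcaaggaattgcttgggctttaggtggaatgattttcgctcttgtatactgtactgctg

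The first, CUST_19976, measured 0.30, 0.28 and -0.14 at 48 h, against -3.11, -3.93 and -3.76 at 12 h. It was 13.4-fold higher at 48 h (3.75 ± 0.23, adjusted p = 1.6e-07). PIP2.2 measured 1.96, 1.58 and 1.55 at 48 h, against -1.78, -1.14 and -1.68 at 12 h (3.23 ± 0.24, adjusted p = 8.7e-07). PIP1.3 measured 2.25, 2.21 and 1.85 at 48 h, against -0.61, -1.10 and -0.83 at 12 h (2.95 ± 0.19, adjusted p = 2.9e-07). The 48-h arrays of all 3 probes lay far above the 12-h arrays. Over the 5 time points in order CUST_19976 averaged 0.42, 1.10, -3.60, 0.05 and 0.15, with 12 h as the one low time point.

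In phenylpropanoid and flavonoid synthesis, which leads to lignin and flavonoids, 5 of 14 probes were higher and 1 was lower (42.9% called, median -0.11). Phenylalanine ammonia-lyase, the entry enzyme, measured 1.59, 1.65 and 1.64 at 48 h, against -0.10, -0.38 and -0.27 at 12 h (1.87 ± 0.11, adjusted p = 8.8e-08). Of 8 probes for cinnamoyl-CoA reductase, which starts the branch to lignin, 4 were higher, with CUST_3004 at 1.75 ± 0.16 and CUST_4941 at 1.74 ± 0.17, and 1 was lower (-1.31), so members of this family moved in both directions. *Myb domain protein 12*, an activator of flavonol genes in *Arabidopsis*, measured -2.38, -2.27 and -2.38 at 48 h, against -4.77, -4.58 and -5.21 at 12 h (2.51 ± 0.21, adjusted p = 2.3e-06), again without overlap.

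Starch and sugar probes were mixed, with 2 of 13 higher and 1 lower (median -0.38). The share called (23.1%) was near the 18.3% of the study's list. Beta-amylase, which breaks down starch, measured 0.65, 0.99 and 0.29 at 48 h, against -0.92, -1.07 and -0.89 at 12 h (1.61 ± 0.23, adjusted p = 0.00021). Sucrose phosphate phosphatase, the last enzyme of sucrose synthesis, measured -3.62, -3.75 and -3.80 at 48 h, against -2.08, -2.38 and -1.98 at 12 h (-1.58 ± 0.12, adjusted p = 1.2e-06). A member of the MtN3 family of sugar transporters was higher by 2.02 ± 0.27 (adjusted p = 0.00011) but lost its call with normexp background correction. None of these groups overlapped between 48 h and 12 h.

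Cell wall loosening had 3 of 10 probes higher and 3 lower (60% called, median -0.50). The major pollen allergen Ory s 1, which belongs to the beta-expansins, measured -2.79, -3.44 and -2.65 at 48 h, against -7.86, -8.30 and -5.69 at 12 h (4.33 ± 0.80, adjusted p = 0.0013), being well above background on only 1 of the 3 arrays at 12 h, and its difference was 5.12 without 12-h replicate 3. A polygalacturonase, a pectin-degrading enzyme, measured -0.50, -1.11 and -0.62 at 48 h, against -3.05, -3.38 and -2.20 at 12 h (2.13 ± 0.30, adjusted p = 0.00018). *BRU1*, a xyloglucan endotransglucosylase first described as brassinosteroid-regulated in soybean, measured -3.94, -3.72 and -3.71 at 48 h, against -1.58, -1.41 and -3.05 at 12 h (-1.78 ± 0.40, adjusted p = 0.0048). No overlap was seen in any of them. The other called members were close to the threshold, namely a further polygalacturonase (1.07 ± 0.26, call lost in 3 of 20 alternatives) and the xyloglucan endotransglucosylases 22 (-1.20 ± 0.43, lost in 11) and A (-1.10 ± 0.19, lost in 4). Without 12-h replicate 3 the further polygalacturonase (0.77) and endotransglucosylase A (-0.96) no longer reached 2-fold. Unlike the water channels, *BRU1* and the pollen allergen stood apart at 48 h, since *BRU1* averaged -1.67, -2.09, -2.01, -1.65 and -3.79 over the 5 time points in order. The pollen allergen averaged -7.44, -7.30, -7.28, -4.53 and -2.96, with its 24-h level between those of 12 h and 48 h. The 3 alpha-expansin probes, of another expansin family, lay between -0.58 and -0.46 and were not called.

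In the oil body, fatty acid and seed protein group, 4 of 21 probes were higher and 1 (the *FAD3* probe) was lower. The share called (23.8%) was near the 18.3% of the study's list. A chloroplast omega-6 desaturase measured -1.66, -1.36 and -1.63 at 48 h, against -2.85, -3.001 and -2.93 at 12 h (1.38 ± 0.11, adjusted p = 1.3e-06). Legumin B, a seed storage protein, measured -3.04, -2.68 and -2.39 at 48 h, against -3.83, -4.47 and -3.68 at 12 h (1.29 ± 0.27, adjusted p = 0.0032), a call lost with normexp background correction. A dehydrin (1.02 ± 0.16) and a late embryogenesis abundant protein (1.04 ± 0.16), both known from drying seeds, were higher too, but lost their calls in 7 and 6 of the 20 alternatives. The 9 oleosin 2 probes of the list, which encode oil body coat proteins, had differences from -0.66 to -0.39, no call and overlapping groups.

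Chromatin and cell cycle probes had 0 higher and 1 lower of 14, with a median of -0.40 and 9 of 14 past the adjusted p alone. The share called (7.14%) was near the 8.17% of all probes but below the 18.3% of the study's list. The lower probe was a histone H4, which measured -2.51, -2.55 and -2.34 at 48 h, against -1.53, -1.21 and -0.66 at 12 h (-1.33 ± 0.23, adjusted p = 0.0008), with no overlap. Heat shock proteins and chaperones had 1 higher, HSC70-1 (1.37 ± 0.19), and 1 lower, a heat-shock protein (-1.21 ± 0.21), of 24. This share (8.33%) was likewise near that of all probes but below that of the study's list. The 21 ribosome and translation probes and the 26 proteasome and ubiquitin probes had no call by limma's test, their differences reaching from -0.35 to 0.48 and from -0.89 to 0.33. At the adjusted p alone 5 and 8 of them passed, both shares being below the 31.8% of all tested probes. In the clock and light group 2 of 6 were higher (33.3% called). The rhythmically expressed protein measured 3.14, 3.39 and 2.93 at 48 h, against 1.13, 1.56 and 1.23 at 12 h (1.85 ± 0.13, adjusted p = 7e-07), and the AFR protein, which acts in phytochrome signalling, was dim on all arrays at 12 h (at least 2.26-fold higher, adjusted p = 0.0066) and lost its call with normexp background correction and in the fit of 6 arrays. A second AFR probe, CUST_27834, well above background on all 6 arrays, differed by -0.17 ± 0.09 (adjusted p = 0.18).

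**Figure D4:**
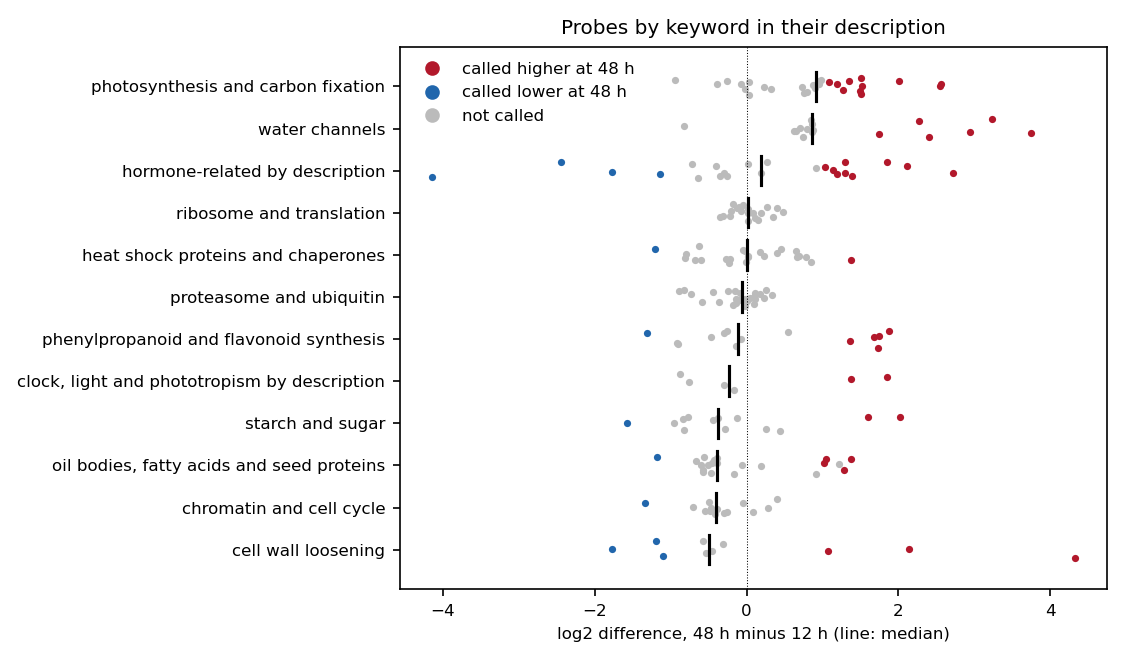
Log2 differences 48 h minus 12 h (horizontal axis) of the probes in 12 groups formed by keywords in their descriptions (vertical axis, ordered by the group median, black line), with called probes in red (higher at 48 h) or blue (lower). The photosynthesis and water channel groups had medians of 0.92 and 0.86, and the cell wall group reached from -1.78 to 4.33.

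The 23 probes with hormone-related descriptions had 9 higher and 4 lower at 48 h (56.5% called). Among them were the *NCED3*, *GID1c*, *IAA19* and *BRU1* probes already given. A second zeaxanthin epoxidase probe (1.39 ± 0.17) and 2 probes for the first enzyme of the plastid isoprenoid pathway, 1-deoxyxylulose-5-phosphate synthase (1.29 ± 0.18 and 1.29 ± 0.17), were higher, as were the *ABA1* and *CLA1* probes for the same steps, but a further probe for that synthase, CUST_20165, was not called (0.02 ± 0.17, adjusted p = 0.95). The carotenoid cleavage enzyme CCD1 was higher by 1.14 ± 0.16. Lower at 48 h were 2 probes for auxin-repressed 12.5 kDa proteins, a family named for transcripts that fall when auxin is applied. CUST_32452 measured -3.73, -4.11 and -3.97 at 48 h, against 0.98, -1.04 and 0.67 at 12 h. It was 17.7-fold lower (-4.14 ± 0.47, adjusted p = 2.9e-05), with 12-h replicate 2 below the other 12-h arrays but far above all 48-h arrays, and the difference was -4.77 without it. CUST_22906 measured 2.80, 2.32 and 2.55 at 48 h, against 5.50, 4.72 and 4.80 at 12 h (-2.45 ± 0.30, adjusted p = 6.7e-05). The longest run these 2 probes share is 5 bases, whereas CUST_25239, described only as a predicted protein, shares a run of 36 bases with CUST_22906 (in capitals in those 2 lines) and differed by -2.57.
CUST_32452: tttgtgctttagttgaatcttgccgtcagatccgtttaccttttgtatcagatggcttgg
CUST_22906: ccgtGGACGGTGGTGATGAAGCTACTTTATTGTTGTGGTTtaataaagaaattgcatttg
CUST_25239: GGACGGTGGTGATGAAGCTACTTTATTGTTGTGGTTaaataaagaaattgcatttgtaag
Over the 5 time points in order CUST_32452 averaged -4.51, -6.71, 0.21, -5.05 and -3.94, with 12 h as the one high time point. In the opposite direction, the auxin-induced protein 5NG4 probe CUST_20021 was higher by 2.11 ± 0.44 (adjusted p = 0.003). A second 5NG4 probe, CUST_6743, was dim on all arrays at 12 h, a difference of at least 4.86-fold (adjusted p = 3.9e-08), with its call lost under normexp background correction. Such a lower bound sets the mean of the brighter time point against a floor for the dim one, the floor on each array being its dimmest signal well above background, or the signal of the probe itself if brighter. It holds for the background subtraction of the scanner software only, since normexp gave smaller differences for the dim probes named here.

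The largest rises among probes with a functional description were the N-acetyltransferase and silicon transporter probes, printed here as the sequences behind the strongest described differences.
N-acetyltransferase (CUST_14937): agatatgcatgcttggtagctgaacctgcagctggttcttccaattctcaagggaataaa
Silicon transporter (CUST_10756): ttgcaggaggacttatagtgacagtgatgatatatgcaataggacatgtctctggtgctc

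The N-acetyltransferase, of a family that transfers acetyl groups to amines, measured 0.88, 1.19 and 0.78 at 48 h, against -4.04, -5.04 and -4.43 at 12 h. It was 43.9-fold higher at 48 h (5.45 ± 0.21, adjusted p = 3.8e-09). The silicon transporter measured -1.41, -1.36 and -2.45 at 48 h, against -6.94, -6.55 and -6.74 at 12 h and was 32.2-fold higher (5.01 ± 0.25, adjusted p = 2.8e-08). In both, the lowest 48-h array exceeded the highest 12-h array by more than 4 log2 units. The cation efflux protein of the qRT-PCR list, from a family of metal transporters, was dim on all arrays at 12 h and rose at least 12.4-fold by 48 h (adjusted p = 2.1e-07), with a difference of 2.17 under normexp. A MAPKKK, the first kinase of a signalling cascade, was likewise dim at 12 h and rose at least 10.8-fold (adjusted p = 6.6e-07, lost with normexp background correction at 0.053).

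The next 4 probes were of metabolism or signalling, and their groups did not overlap because the rule that named them required it. The kinase Nek8, well above background on 1 of the 3 arrays at 12 h, measured -3.51, -3.11 and -3.24 at 48 h, against -7.56, -7.53 and -7.31 at 12 h (4.18 ± 0.12, adjusted p = 5.1e-10). NADP-dependent glyceraldehyde-3-phosphate dehydrogenase measured -0.43, 0.17 and -0.47 at 48 h, against -3.58, -3.71 and -3.45 at 12 h (3.34 ± 0.19, adjusted p = 1e-07). Myo-inositol-1-phosphate synthase, which commits glucose-6-phosphate to inositol, measured 2.57, 2.15 and 2.25 at 48 h, against -1.39, -0.77 and -0.67 at 12 h (3.26 ± 0.25, adjusted p = 1.2e-06). At 0 h these 3 lay nearer their 48-h than their 12-h level. Gulonolactone oxidase, an enzyme of ascorbate synthesis, was different in that it measured -0.56, -0.67 and -0.58 at 48 h, against -3.27, -3.73 and -5.22 at 12 h (3.47 ± 0.54, adjusted p = 0.0004) while its 0-h mean was -6.76, the lowest of the time course.

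Among the falls, electron transfer flavoprotein-ubiquinone oxidoreductase (ETF-QO), which passes electrons from amino acid and fatty acid breakdown to mitochondrial respiration, measured -0.46, -0.72 and -0.67 at 48 h, against 2.71, 1.85 and 2.36 at 12 h. It was 7.57-fold lower at 48 h (-2.92 ± 0.24, adjusted p = 2.1e-06). RF2a, a bZIP transcription factor first described in rice, measured -2.68, -2.71 and -3.61 at 48 h, against -0.13, -0.55 and -0.28 at 12 h (-2.68 ± 0.43, adjusted p = 0.00051). That the groups were apart in both was required by the naming rule. The time courses differed, since ETF-QO averaged -0.92, -0.53, 2.30, -0.91 and -0.62 over the 5 time points in order. RF2a averaged -0.22, -2.25, -0.32, -1.51 and -3.001, lowest at 48 h and not highest at 12 h. A probe described as alcohol dehydrogenase measured -1.39, -1.15 and -1.23 at 48 h, against 0.64, 0.27 and 0.66 at 12 h (-1.78 ± 0.21, adjusted p = 3.9e-05). A short chain alcohol dehydrogenase measured -0.51, -0.96 and -0.72 at 48 h, against 0.93, 0.92 and 0.81 at 12 h (-1.62 ± 0.17, adjusted p = 2.1e-05). Both were lower on every 48-h array, as the naming rule required. Glutathione S-transferase, a detoxifying enzyme, fell by more (-2.18 ± 0.60, adjusted p = 0.015), but its 12-h values reached from -3.99 to -0.59, the difference was -1.34 when 12-h replicate 3 was left out but -3.03 when replicate 2 was, and its call was lost with normexp background correction and in the fit of 6 arrays. A dimethylaniline monooxygenase (-2.56), a phosphoprotein phosphatase (-1.96) and a cucumisin-like protease (-1.71) were also lower, each losing its call with normexp background correction, and the monooxygenase difference was -1.94 without 48-h replicate 2.

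Without regard to a description, CUST_9695 and CUST_10716 rose most and CUST_33116 and CUST_23492 fell most. CUST_9695 measured 0.12, 0.48 and 0.00057 at 48 h, against -6.90, -7.08 and -8.36 at 12 h (7.65 ± 0.33, adjusted p = 1e-08). CUST_10716, a conserved hypothetical protein, was dim on all arrays at 12 h and rose at least 64.9-fold by 48 h (adjusted p = 1.4e-09), with a difference of 4.34 under normexp. CUST_23492 measured -2.48, -2.85 and -2.59 at 48 h, against 3.64, 3.07 and 3.45 at 12 h (-6.02 ± 0.18, adjusted p = 5.7e-10). CUST_33116 was dim on all arrays at 48 h and at least 51.4-fold lower there (adjusted p = 1.5e-05), with a difference of -4.20 under normexp and -5.82 without 12-h replicate 1. A further conserved hypothetical protein, CUST_650 of the qRT-PCR list, measured 2.95, 3.27 and 2.79 at 48 h, against -2.80, -3.14 and -3.47 at 12 h, which made it 70.6-fold higher at 48 h (6.14 ± 0.16, adjusted p = 2.1e-10). All 5 stood apart at 12 h, in that CUST_650, for example, averaged 3.24, 3.06, -3.14, 2.88 and 3.004 over the 5 time points in order.

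Of the 12 probes that the study had also measured by qRT-PCR, 11 were tested, 5 being higher and 2 lower at 48 h, beside 8.17% of all probes called. The study picked these probes to represent its clusters of changed transcripts in these samples, so the count is no independent evidence. Apart from those given above, the zinc finger protein was dim on all arrays at 48 h and at least 4.43-fold lower there (adjusted p = 0.00021), a call lost with normexp background correction. The probe described as catalytic measured -6.75, -5.76 and -5.52 at 48 h, against -10.06, -9.72 and -6.82 at 12 h (2.86 ± 0.65, adjusted p = 0.0051), but only 1 of the 3 arrays at 12 h was well above background. Its difference was 3.88 without 12-h replicate 3, 2.26 without 12-h replicate 1 and 0.92 (adjusted p = 0.69) with normexp background correction, where its call was lost, as in the fit of 6 arrays. The list's oleosin 2 probe differed by -0.32 ± 0.53, and *MAPKKK5* was not tested.

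**Figure D5:**
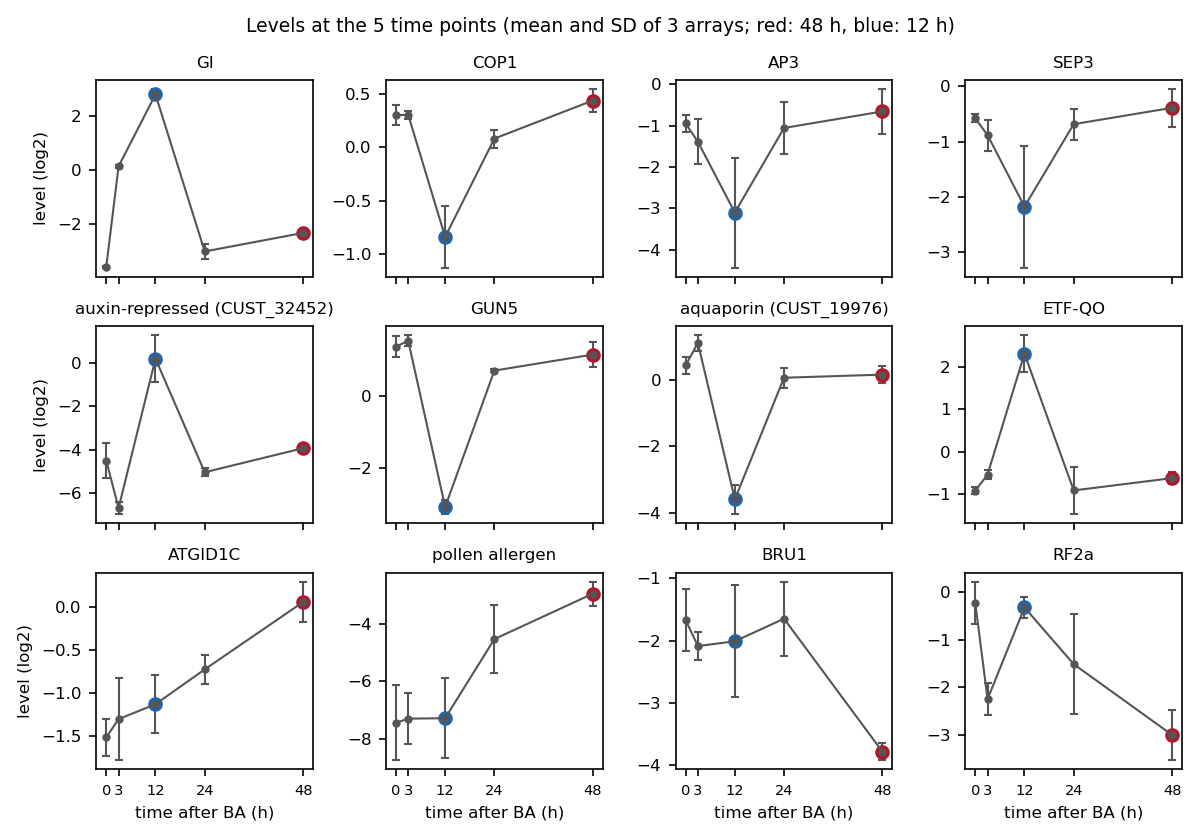
Mean level (vertical axis, log2 relative to the 75th percentile of the array) against hours after BA (horizontal axis, 0 to 48 h) for 12 named probes, with error bars giving the SD of 3 arrays, the 12-h mean in blue and the 48-h mean in red. In the first 8 panels 12 h stands apart from 0 h and 24 h and the 48-h mean lies nearer theirs than the 12-h mean, as in *GI* (-3.61, -3.03 and -2.34 at 0, 24 and 48 h), whereas in the last row 48 h is the highest or lowest mean.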

How the data were processed

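Custom 60-mer, 1-colour Agilent arrays were hybridised by the authors with RNA from BA-treated buds. The deposited scanner intensities were background-subtracted by Feature Extraction 10.7.3.1, per the file headers; the deposited series matrix holds log2 values normalized by the authors, used as an alternative. Here, processed intensities were log2 transformed and shifted to each array's 75th percentile, controls and marked spots dropped, repeated spots averaged, and probes kept if well above background on the 3 arrays of any time point (34449 of 41651). A model with 1 mean per time point was fitted to 15 arrays in limma 3.58.1 (R 4.3.3), p-values being adjusted by Benjamini-Hochberg across the tested probes; a call needed an adjusted p of at most 0.05 and 2-fold. Normexp used the median signal, because the mean signal was not among the columns. The fit was checked on simulated data. Probes named by rule were the called flowering, hormone and qRT-PCR probes and those of *AG*, *AP1*, *AP2*, *COP1*, *CUC1* and *STM*. The rule also took the 2 largest differences in each direction and the 10 largest in each direction with a functional description. Both of these sets were limited to probes without overlap between 48 h and 12 h. The 3 largest called in each functional group were named too. Further members of these lists were named after their values were seen. Members and lists were chosen with earlier results of these data known. Gene names came from the study's tables, and genomic positions were not analysed here. The p-values measure the spread between the labelled replicates, and the number of arrays limits precision. Alternatives covered scaling, background, filter, model, blocks and left-out replicates.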

Additional observations from a re-analysis of the deposited data

How the results depend on the processing

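The number of called probes was 1789 (1204 higher, 585 lower) with normexp background correction, against 2816 in the main analysis, and 1745 of the 1789 were called in both; the cause was not tested. The other 19 alternatives gave 2303 to 3268 calls, and leaving out each array in turn gave 2589 to 3094 calls over all probes, 6 to 8 in the flowering list, 14 to 19 in the hormone list, 50 to 62 over the functional groups and 68 to 74 of the named probes. No probe was called in opposite directions by the main analysis and any alternative. *CUC1*, which was not called in any of them, reached from -0.11 (without 12-h replicate 2) to 0.88 (without 48-h replicate 1) and was also below 0, at -0.08, without 48-h replicate 2. The share of higher calls stayed between 59.6% and 70.3% across the scalings, with a median over all probes between -0.04 and 0.05. With the replicate number as a block 2813 probes were called (1811 higher, 1002 lower), but deviations of same-numbered arrays correlated at -0.125, -0.217 and 0.144, so the numbers do not pair the arrays. Slide as a random block gave 2750 calls and scan day as a fixed block 2837. The 12-h and 48-h arrays were all scanned on the same day, so the scan-day block could not change their differences. The slide block could not separate slide from time point, because the 48-h arrays lay on a slide of their own. Probes near background have the least certain differences.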
